A study of Mus musculus with 4 samples.

Results

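The genes described here copy DNA and supply its building blocks: 49 genes were listed by name, and every probe set that the platform annotation ties to 1 of them alone was read in 4 mouse cerebellar tumors. Of the 49 genes, 48 had such a probe set, 95 probe sets in all, and 46 genes passed the filter on low signals, among 8498 genes tested on the array. All 46 lay above the floor of 5.12 on the log2 scale in all 4 tumors. Each tumor is titled Chd7-het, a heterozygous genotype of the chromatin remodeller gene Chd7, and is called tumor 1, 2, 4 or 5 after its title. They form a single group on a mixed CD1xC57BL/6 background, and 1 Affymetrix mouse expression array, on which a probe set is a group of short oligonucleotides for a transcript, was run per tumor. The labels give no age, sex, further allele or driver of the tumors, and every array is from a Chd7-het tumor, so an effect of Chd7 cannot be measured here. The 13 granule cell progenitor markers read, Atoh1, Ptch1 and Zic1 among them, lay above the floor in every tumor.

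Replication starts when the origin recognition complex (ORC), Cdc6 and Cdt1 load rings of the helicase subunits Mcm2 to Mcm7 onto DNA, a step called licensing, which geminin (Gmnn) blocks outside G1 phase. Cyclin E with its kinase, Mcm10, Cdc45 and the GINS complex then turn the rings into moving helicases, polymerase alpha with primase starts each strand, and polymerases delta and epsilon extend it on the sliding clamp Pcna, which the Rfc complex loads. Ribonucleotide reductase, thymidylate synthase, thymidine kinase and dUTPase provide deoxynucleotides. Many of these genes are known targets of the E2F transcription factors, and granule cell progenitors of the cerebellum divide many times before they become neurons.

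In tumor 1, 45 of the 46 measured genes read below the mean of the other 3 tumors, against 56.3% of all genes tested, and 43 of 46 had their lowest value there, against 31.4% of all genes. The median difference of the 46 was -0.40 on the log2 scale (quartiles -0.47 and -0.30), while the median over all genes was -0.036. The shift was small for each gene: none of the 46 differed by 2-fold. In the limma fit over all genes, 0 of 46 passed at an adjusted p under 0.05 and 2-fold or more, where 1.29% of all genes passed in either direction and 0.247% as lower in tumor 1. At an unadjusted p under 0.05, 20 of 46 were lower in tumor 1 and 0 higher, against 4.68% of all genes lower. Tumor 1 stands alone in this comparison, so it is assumed to vary like the other 3, and the p-values measure only the spread between these arrays.

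**Figure D1:**
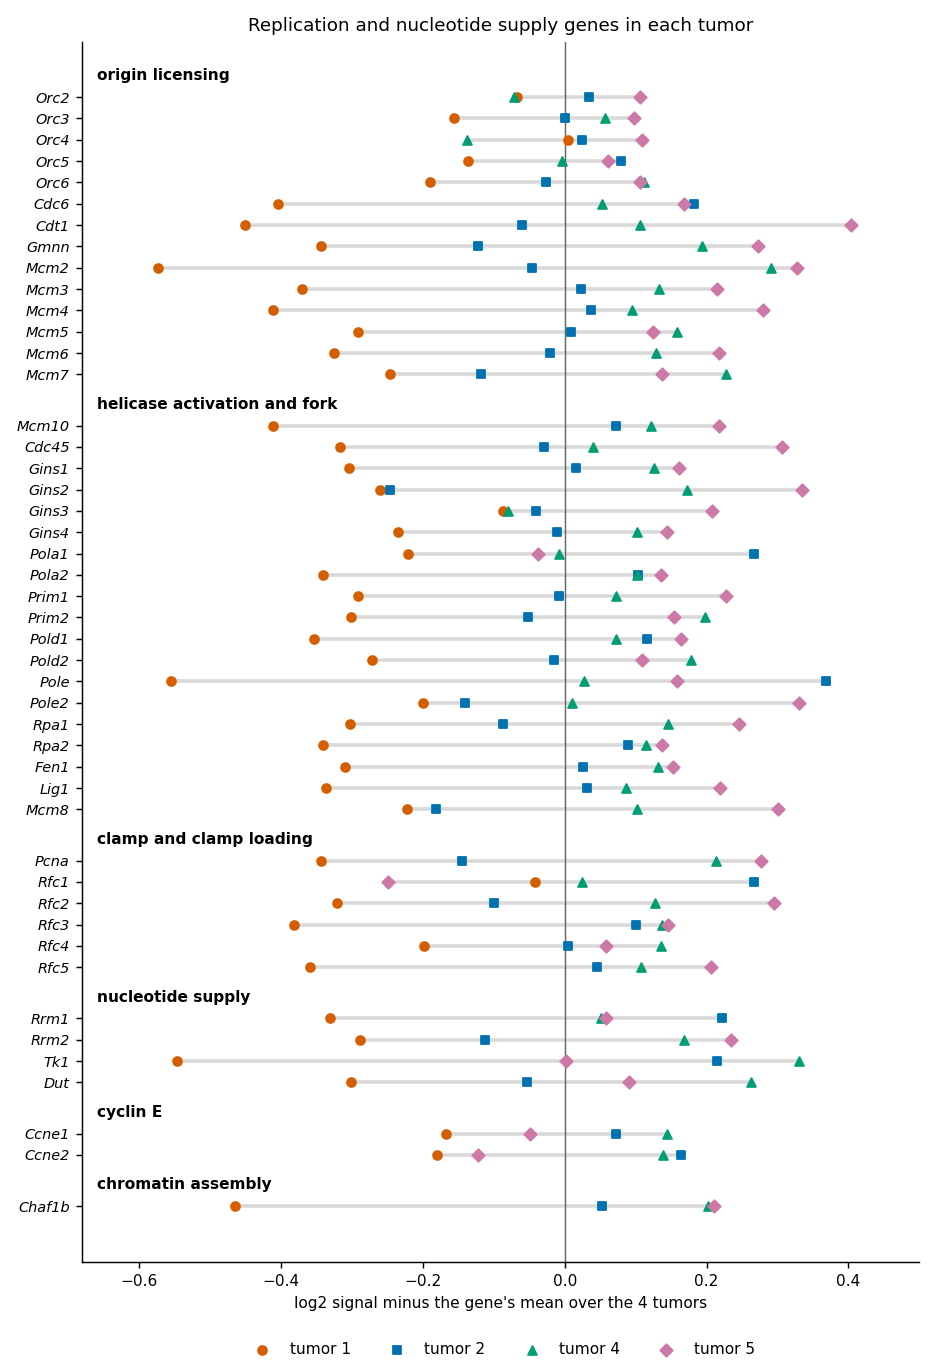
Log2 signal of the 46 measured genes minus each gene's mean over the 4 tumors (x axis, log2), grouped by role, with 1 point per tumor and a grey bar over the range. The tumor 1 point is the leftmost for 43 of the 46 genes, and Orc2, Orc4 and Rfc1 are the exceptions.

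**Figure D2:**
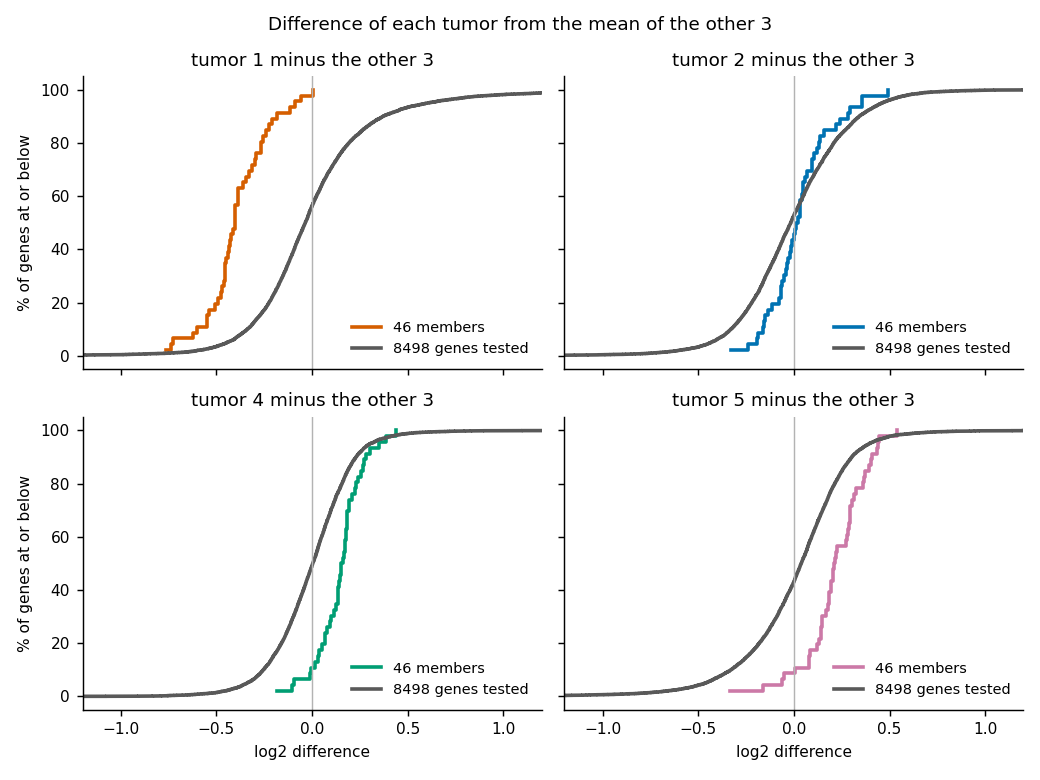
Cumulative share of genes (y axis, %) by the log2 difference of a tumor from the mean of the other 3 (x axis), for the 46 members in colour and the 8498 genes tested in dark grey, 1 panel per tumor; the axis ends at 1.2 to each side. The members' curve lies left of that of all genes in tumor 1, with medians of -0.40 and -0.036, and right of it in tumor 5, with medians of 0.21 and 0.038.

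Tumor 1 also held more signal of mature cells. The 10 measured of 15 mature neuron markers summed to 9439 linear units in tumor 1, against 2983, 4041 and 3712 in tumors 2, 4 and 5. All 10 read higher in tumor 1, with a median log2 difference of 2.93, and 4 lay below the floor in tumor 2 and 3 in tumor 5. The filter used the mean over all 4 tumors, which favours markers high in 1 of them. Over tumors 2, 4 and 5, Calb1, Gad1 and Pcp4 averaged 4.83, 5.46 and 5.48, under the filter at 5.87. The same held for Cldn11 (5.56) and Gdf10 (5.63), named below. Which markers were measured and passed as higher in tumor 1 thus rests partly on this filter. The 7 measured of 11 oligodendrocyte markers summed to 6099 in tumor 1, against 2441, 3359 and 2562, with 3 passing as higher, Mbp, Ugt8a and Cldn11. The oligodendrocyte list was split, since 3 of the 7, Sox10, Olig1 and Olig2, were lowest in tumor 1, with differences of -0.80, -0.37 and -0.66. Microglia and macrophage markers, 11 of 11 measured, summed to 4062 in tumor 1, against 4872, 7097 and 5277, with 1 passing as lower. The 10 astrocyte markers summed to 9183, against 7053, 8097 and 7905, with Gdf10 and Gjb6 passing as higher and Gfap at a difference of -0.98 (adjusted p = 0.0558), and the 4 measured of 10 vascular and stromal markers to 1060, against 685, 521 and 696. The 13 granule cell progenitor markers summed to 16827 in tumor 1, against 16542, 17892 and 17801, and went both ways: 7 of 13 were lower in tumor 1, Pax6 and Cntn2 passed as higher (1.26 and 1.12), and Atoh1 differed by -0.83 (adjusted p = 0.103). Tumor 1 was thus highest in the neuronal, glial and vascular sums other than microglia. The 46 replication genes summed to 22607 linear units in tumor 1, against 27723, 31015 and 32000 in tumors 2, 4 and 5. In pieces of whole tumor, fewer dividing cells and less RNA per cell cannot be told apart, and the part of other cell types in the lower replication signals was not tested.

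Array medians of all probe sets lay between 5.83 and 5.96 on the log2 scale. Bright genes as a class also read lower in tumor 1. Over the 2125 genes with the highest mean signals the median difference of tumor 1 was -0.087, and over the 2125 with the lowest it was 0.017. After quantile normalization, which gives all arrays the same distribution, the median of the 46 members was -0.37 in tumor 1, with 46 of 46 lower.

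The promoters of the genes were searched for letters of the E2F site, since many of the genes are known E2F targets. The share of windows with a match therefore says nothing about the tumors. In RefSeq windows of GRCm38.p6, 250 bases before to 50 after a start, 40 of the 49 genes had 48 windows. At least 1 of 4 E2F forms (TTTCGCGC, TTTGGCGC, TTTCCCGC or TTTGCCGC, either strand) stood in 15 of the 48 windows, which is 31.2%, and in 2.26% of all 32851 windows. Matches on opposite strands can overlap where they share the letters GCGC. The CCAAT box, bound by NF-Y, stood in 54.2% of the members' windows and 37.4% of all, and TTTGAA, the CHR element known from mitotic genes, in 10.4% and 17.9%, either strand.

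The stretches below are the 180 bases before the start of 6 genes, 5 with an E2F form there and Mcm2, the gene with the largest difference in tumor 1, without one. Capitals mark E2F forms and CCAAT boxes on either strand. They lie at chr1:128359706-128359885 (minus strand) for Mcm6, chr8:75109329-75109508 (plus) for Mcm5, chr5:138171884-138172063 (minus) for Mcm7, chr11:98907971-98908150 (plus) for Cdc6, chrX:93632156-93632335 (minus) for Pola1 and chr6:88898781-88898960 (minus) for Mcm2, all in GRCm38.p6.
Mcm6: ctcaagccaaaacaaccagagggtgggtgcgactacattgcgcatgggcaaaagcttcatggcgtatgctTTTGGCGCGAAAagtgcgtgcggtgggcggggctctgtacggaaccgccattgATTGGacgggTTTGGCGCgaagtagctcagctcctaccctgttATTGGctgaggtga
Mcm5: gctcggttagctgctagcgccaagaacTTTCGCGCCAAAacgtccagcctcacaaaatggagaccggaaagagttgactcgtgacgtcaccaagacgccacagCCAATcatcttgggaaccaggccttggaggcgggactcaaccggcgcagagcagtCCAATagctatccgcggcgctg
Mcm7: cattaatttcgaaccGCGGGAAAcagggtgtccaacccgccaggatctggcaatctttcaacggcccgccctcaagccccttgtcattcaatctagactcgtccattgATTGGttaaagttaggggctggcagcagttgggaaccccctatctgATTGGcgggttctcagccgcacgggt
Cdc6: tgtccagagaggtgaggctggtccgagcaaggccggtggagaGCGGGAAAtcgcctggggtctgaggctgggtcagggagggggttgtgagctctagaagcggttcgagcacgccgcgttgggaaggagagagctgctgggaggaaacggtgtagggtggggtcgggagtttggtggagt
Pola1: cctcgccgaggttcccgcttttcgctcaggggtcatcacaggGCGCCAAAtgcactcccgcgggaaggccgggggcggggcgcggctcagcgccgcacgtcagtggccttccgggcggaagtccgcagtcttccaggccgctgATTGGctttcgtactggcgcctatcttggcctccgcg
Mcm2: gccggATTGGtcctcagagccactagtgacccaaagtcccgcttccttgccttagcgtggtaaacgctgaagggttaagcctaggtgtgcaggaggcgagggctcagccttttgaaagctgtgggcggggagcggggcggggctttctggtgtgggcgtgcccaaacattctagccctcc

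Mcm6 held 3 E2F matches, whose first bases lay 110, 106 and 47 bases before the start, those at 110 and 106 overlapping on opposite strands. Mcm5 held another overlapping pair, at 153 and 149 bases. The 14 measured genes with an E2F form in a window had a median difference in tumor 1 of -0.41 (range -0.60 to -0.12). The 23 with a window but no such form had -0.40 (range -0.76 to 0.0060) and the ranges overlapped. A match is a string of letters and not a measured binding site.

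Among the licensing genes, all 6 subunits of the helicase ring read lowest in tumor 1. Mcm2 read 8.73 in tumor 1, against 9.26, 9.59 and 9.63 in tumors 2, 4 and 5, which is 1.70-fold lower in tumor 1 (log2 difference -0.76, SE 0.19, adjusted p = 0.110). Tumor 1 stood apart below the rest, and tumors 4 and 5 lay close together at the top. Its second probe set differed by -0.765 in tumor 1.

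Mcm3 read 9.37 in tumor 1, against 9.76, 9.87 and 9.96 in the others (difference -0.49, SE 0.16, adjusted p = 0.252). Mcm4 read 9.66, against 10.10, 10.16 and 10.35 (-0.55, SE 0.17, adjusted p = 0.234). Both kept the order of tumors seen for Mcm2.
Mcm5 read 10.44, against 10.74, 10.89 and 10.85 (-0.39, SE 0.18, adjusted p = 0.486). Mcm6 read 10.52, against 10.82, 10.97 and 11.06 (-0.43, SE 0.19, adjusted p = 0.454). Mcm7 read 11.12, against 11.24, 11.59 and 11.50 (-0.33, SE 0.22, adjusted p = 0.686). For all 6 subunits tumor 1 was lowest and tumor 2 was second lowest by the brightest probe sets. The median for tumor 2 against the mean of tumors 4 and 5 was -0.17.

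The loaders and their brake were also lowest in tumor 1. Cdt1, the loading factor, read 9.84 in tumor 1, against 10.23, 10.39 and 10.69 in tumors 2, 4 and 5 (-0.60, SE 0.21, adjusted p = 0.277), and Gmnn, which binds and blocks Cdt1, read 8.27, against 8.49, 8.81 and 8.88 (-0.46, SE 0.19, adjusted p = 0.405). By these probe sets the loader and its inhibitor had the same order of tumors. The dimmer probe set of Cdt1 read 8.585 in tumor 1, against 9.07, 8.98 and 9.21, with tumor 2 above tumor 4. Cdc6 read 7.53 in tumor 1, against 8.11, 7.98 and 8.10 (-0.54, SE 0.17, adjusted p = 0.230), with the other 3 tumors close together and tumor 2 the highest.

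The ORC subunits, which mark origins, varied less by their brightest probe sets. Over Orc2 to Orc6 the median SD across tumors was 0.10 on the log2 scale, against 0.25 for Mcm2 to Mcm7 and 0.17 for all genes, and the median difference of tumor 1 was -0.18 against -0.46 for the ring. Orc4 had the smallest difference of all 46 genes: 7.89 in tumor 1, against 7.91, 7.74 and 7.99 (0.0060, SE 0.18, adjusted p = 0.997). Its direction flipped to -0.017 under quantile normalization and to -0.095 with arrays centred on their medians, and its other probe sets past the filter gave -0.10 and -0.068. The dimmer probe sets of Orc2 differed by -0.39 and -0.32, against -0.09 for the brightest, so the small size for that gene depended on the probe set. Orc6 read 8.19 in tumor 1, against 8.35, 8.49 and 8.49 (-0.25, SE 0.16, adjusted p = 0.644). Orc1, the subunit known to cycle in human cells, did not reach the filter. It read 5.44 in tumor 1, against 5.70, 5.84 and 5.98, near the floor and with the order of Mcm2, Mcm3, Mcm4 and Mcm6.

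At the fork, 19 of 19 genes had their lowest value in tumor 1 by their brightest probe sets, with a median difference of -0.40. The polymerase epsilon catalytic subunit gene Pole differed most, at 7.24 in tumor 1, against 8.16, 7.82 and 7.95 in tumors 2, 4 and 5 (1.67-fold lower, log2 difference -0.74, SE 0.19, adjusted p = 0.130). Tumor 2 was highest for Pole, unlike for most genes of the group. Its partner Pole2, the B subunit, had tumor 5 at the top, with 8.44 in tumor 5 against 7.91, 7.97 and 8.12 in tumors 1, 2 and 4 (tumor 5 difference 0.44, SE 0.18, unadjusted p = 0.0454, adjusted p = 0.957), and was the 1 member of 46 at an unadjusted p under 0.05 in tumor 5, against 3.6% of all genes. The subunits of polymerase alpha also differed from each other in the order of tumors. Pola1, the catalytic subunit, read 8.18 in tumor 1, against 8.67, 8.39 and 8.36, highest in tumor 2, while Pola2 read 7.42, against 7.86, 7.86 and 7.89, with the 3 higher tumors level.

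The helicase activators followed the ring. Mcm10 read 7.42 in tumor 1, against 7.90, 7.95 and 8.05 (-0.55, SE 0.17, adjusted p = 0.230), and Cdc45 7.03, against 7.32, 7.39 and 7.65 (-0.42, SE 0.21, adjusted p = 0.521). The GINS subunits did not share 1 pattern. Gins2 read 7.35 and 7.37 in tumors 1 and 2, and 7.79 and 7.95 in tumors 4 and 5, so that tumors 1 and 2 were level by that probe set; its other one past the filter read 6.48 in tumor 1 and 6.89 in tumor 2, below both other tumors. Gins3 read 6.18 in tumor 1, against 6.23, 6.19 and 6.48, the smallest difference at the fork (-0.12, SE 0.23, adjusted p = 0.921). By the dimmer probe set of Gins3, tumor 2 was lowest, at 5.87 against 5.88 in tumor 1, where the difference was -0.26. Gins1 and Gins4 differed by -0.41 and -0.31 in tumor 1.

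Among the genes that protect, join and repair the copied strands, Rpa1, a subunit of the single-strand binding protein, read 9.96 in tumor 1, against 10.18, 10.41 and 10.51. The DNA ligase gene Lig1 read 8.89, against 9.26, 9.31 and 9.44, and Fen1, the nuclease that trims Okazaki fragments, 8.49, against 8.83, 8.93 and 8.95. All 3 kept the order 1, 2, 4, 5 from low to high. The differences of tumor 1 for Pold1 and Pold2, subunits of polymerase delta, were -0.47 and -0.36, and for Rpa2, Prim1 and Mcm8, a helicase of recombination, -0.45, -0.39 and -0.30. Prim2, the large primase subunit, depended on the probe set. The brighter one read 7.73 in tumor 1, against 7.98, 8.23 and 8.19, a difference of -0.40. The dimmer one read 7.53 in tumor 1, against 7.56, 7.46 and 7.34, a difference of 0.079.

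The clamp gene Pcna read 11.11 in tumor 1, against 11.31, 11.67 and 11.73 in tumors 2, 4 and 5 (-0.46, SE 0.24, adjusted p = 0.557). Its values fell into a lower pair, tumors 1 and 2, and a higher pair, tumors 4 and 5. Set against tumors 4 and 5 alone, tumor 2 was lower by a log2 difference of -0.39 (SE 0.084, adjusted p = 0.0371), the only member at an adjusted p under 0.05 in that fit, where 3.43% of all genes were. The fit rests on 3 arrays, and with tumor 1 included the difference of tumor 2 was -0.19 (adjusted p = 0.884).

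The clamp loader was split. Rfc3 read 7.61 in tumor 1, against 8.09, 8.13 and 8.14 (-0.51, SE 0.16, adjusted p = 0.239), and Rfc5 read 8.54, against 8.94, 9.00 and 9.10 (-0.48, SE 0.16, adjusted p = 0.247). Rfc1, the large subunit found only in the loader for Pcna, had another order: 8.14 in tumor 1, against 8.45, 8.21 and 7.94, with tumor 2 highest and tumor 5 lowest (-0.057, SE 0.21, adjusted p = 0.963). Its other probe sets differed by -0.082 and -0.028, and without tumor 2 its sign turned, to 0.070. Rfc2 depended on the probe set. The brightest read 8.16 in tumor 1, against 8.38, 8.61 and 8.77 in tumors 2, 4 and 5 (-0.43). Of the dimmer pair, 1 read 6.26, against 6.35, 6.39 and 6.21 (-0.058). The other read 6.69, against 6.23, 6.92 and 6.77 (0.044). Rfc4 differed by -0.26.

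**Figure D3:**
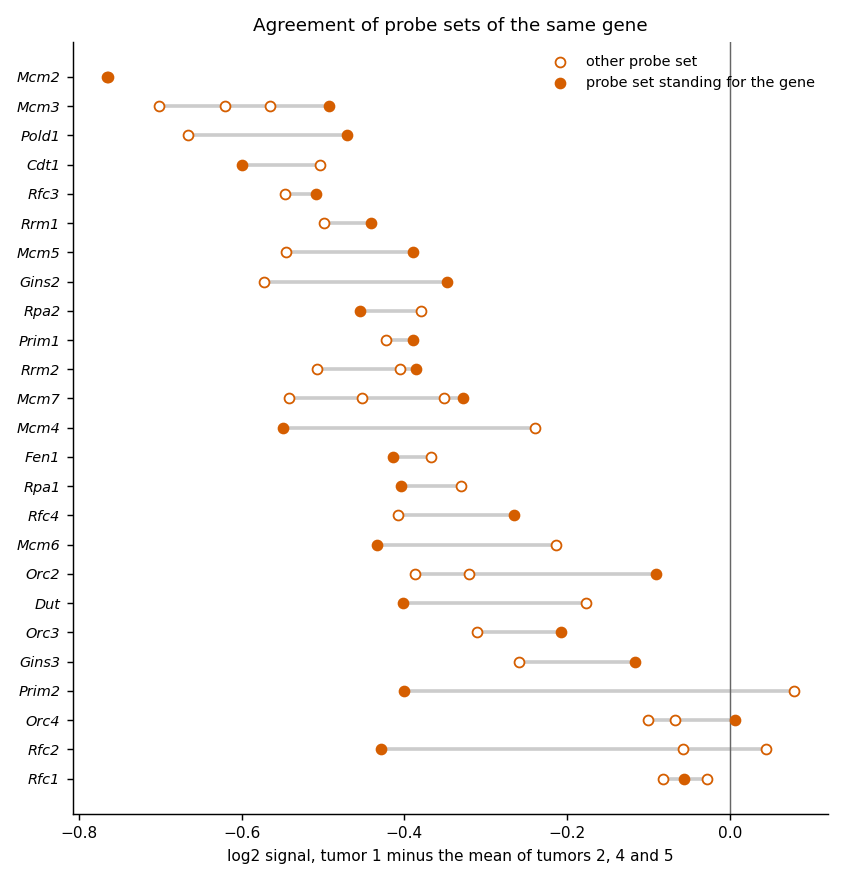
Log2 signal of tumor 1 minus the mean of tumors 2, 4 and 5 (x axis) for each probe set past the filter of the 25 genes with 2 or more, filled for the probe set that stands for the gene. The points of a gene lie on the same side of 0 for 22 of the 25 genes, and Prim2, Rfc2 and Orc4 have points on both sides.

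Over all 80 member probe sets past the filter, 77 read lower in tumor 1 than the mean of the other tumors and 3 read higher. The median range over the probe sets of a gene was 0.14 on the log2 scale, and the largest, for Prim2, was 0.48. Probe sets with the suffix _x_at can bind related transcripts. They gave smaller differences for Mcm4 and Mcm6 (-0.24 and -0.21, against -0.55 and -0.43 for the others). The same held for Mcm5 (-0.39, against -0.55), Pold1 (-0.47, against -0.67), Rrm2 (-0.39, against -0.51 and -0.41) and both of Rfc2. For Mcm5, Pold1 and Rrm2 the _x_at probe set stood for the gene. For Mcm3 it differed by -0.62, between the others at -0.49, -0.565 and -0.70. The _x_at probe set of Mcm7 also lay between its others, at -0.35. For Fen1 it was not smaller (-0.41, against -0.37). Without _x_at and _s_at probe sets Mcm7 differed by -0.54 (adjusted p = 0.243), against the -0.33 given above. The second-lowest place of tumor 2 in the Mcm ring also rests on the brightest probe sets: by the _x_at probe set of Mcm4, tumor 2 was highest. By those of Mcm3 and Mcm6, tumor 2 lay above tumor 4 (8.65 against 8.62, and 10.40 against 10.38).

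Of the nucleotide supply genes, Tk1, the cytosolic thymidine kinase of the salvage pathway, differed most, with 7.39 in tumor 1, against 8.15, 8.26 and 7.94 in tumors 2, 4 and 5 (1.66-fold lower, log2 difference -0.73, SE 0.19, adjusted p = 0.125). The subunits of ribonucleotide reductase differed in order. Rrm1, the large subunit, read 9.28 in tumor 1, against 9.83, 9.66 and 9.67, highest in tumor 2 (-0.44, SE 0.16, adjusted p = 0.307). Rrm2, the small subunit whose level is known to follow S phase, read 10.23, against 10.41, 10.69 and 10.76, highest in tumor 5 (-0.39, SE 0.20, adjusted p = 0.545). Dut, the dUTPase gene, read 9.85 in tumor 1, against 10.10, 10.42 and 10.24 (-0.40, SE 0.18, adjusted p = 0.471), highest in tumor 4. The order for Dut depended on the probe set. Its dimmer one read 6.11 in tumor 1, against 6.00, 6.24 and 6.64 (-0.18), lowest in tumor 2 and highest in tumor 5. For Tyms, thymidylate synthase, both probe sets named for it alone lay below the floor in all 4 tumors, so its level could not be read.

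Both cyclin E genes were lowest in tumor 1, by small differences in the probe sets that stood for them. Ccne2 read 8.35 in tumor 1, against 8.70, 8.67 and 8.41 (-0.24, SE 0.18, adjusted p = 0.716), and Ccne1 read 6.13, against 6.36, 6.44 and 6.24 (-0.22, SE 0.21, adjusted p = 0.808). For both, tumor 5 lay next to tumor 1. The other probe set of Ccne1, under the filter but above the floor in all tumors, differed by -0.56. The small size for Ccne1, read from an _x_at probe set, thus depended on the probe set. Of the chromatin assembly factor that deposits histones behind the fork, Chaf1b read 7.12 in tumor 1, against 7.63, 7.78 and 7.79 (-0.62, SE 0.18, adjusted p = 0.184), and Chaf1a had no probe set with a single symbol in the table used here.

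Tumors 2, 4 and 5 formed a smaller series above tumor 1, part of which bright genes as a class shared. Tumor 2 lay below both tumors 4 and 5 for 32 of the 46 genes, against 43.4% of all genes and 1243 of the 2125 genes with the highest mean signals. The whole order 1, 2, 4, 5 from low to high was found in 25 of 46, against 8.38% of all genes. It was found in 238 of the 2125 genes with the highest mean signals. Tumor 5 was highest for 30 of 46, against 30.9% of all genes, tumor 4 for 9, against 19.1%, and tumor 2 for 7, against 26.5%. The 7 were Orc5, Cdc6, Pola1, Pole, Rfc1, Rrm1 and Ccne2. Of the 2125 genes with the highest mean signals, 708 were highest in tumor 5, 648 in tumor 4 and 439 in tumor 2. The medians against the other 3 tumors were 0.017 in tumor 2, 0.16 in tumor 4 and 0.21 in tumor 5, and without tumor 1 they were -0.13 in tumor 2, 0.022 in tumor 4 and 0.087 in tumor 5. In the limma fits of tumors 2, 4 and 5, 0 members passed, where 0% of all genes passed in each. At an unadjusted p under 0.05 there were 0 members in tumor 2, against 5.84% of all genes, 0 in tumor 4, against 0.553%, and 1 in tumor 5, against 3.6%. These fits share their arrays with that of tumor 1, so the values are no separate results.

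Which array was left out decided whether single members met an adjusted p under 0.05 in tumor 1 when no minimum fold was asked. With all tumors 0 of 46 did, against 1.44% of all genes. Without tumor 2, 15 did, against 7.17% of all genes: Cdt1, Gmnn, Mcm2 to Mcm7, Pole, Rpa1, Pcna, Rfc5, Rrm2, Dut and Chaf1b, each lower in tumor 1, with Mcm2 at -0.88 (adjusted p = 0.00487). Without tumor 5, 1 did, against 3.76%, which was Tk1 at -0.82 (adjusted p = 0.0296). Without tumor 4, 0 did. Such a fit has 1 tumor against 2.

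Other genes of DNA replication, read from a list of 34, gave 31 measured, of which 31 were lower in tumor 1 and 0 passed, with a median of -0.37. Ticrr, which helps Cdc45 to load, differed by -0.72 (adjusted p = 0.338), Rnaseh2a, which removes RNA from DNA, by -0.65 (adjusted p = 0.110) and Wdhd1, which ties polymerase alpha to the helicase, by -0.64 (adjusted p = 0.169). Of 27 other genes of nucleotide synthesis, 25 were measured, 23 lower with a median of -0.26 and 0 passing. Shmt1 and Shmt2, which feed carbon units to thymidylate and purines, differed by -0.52 and -0.45 (adjusted p = 0.247 and 0.275), and Gart, a purine synthesis enzyme, by -0.41 (adjusted p = 0.328).

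Of 18 genes of E2F factors, pocket proteins and G1/S kinases, 17 were measured, 15 lower in tumor 1 with a median of -0.22 and 0 passing. E2f8, a repressor of the family, read 6.98 in tumor 1, against 7.81, 7.52 and 7.43 in tumors 2, 4 and 5 (-0.61, adjusted p = 0.276). The pocket protein gene Rbl1 differed by -0.46 (adjusted p = 0.345) and the cyclin A gene Ccna2 by -0.45 (adjusted p = 0.297). Tumor 2 lay above both tumors 4 and 5 for 9 of these 17, and below both for 4.

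Of 23 mitotic genes, 22 were measured, and all 22 were lowest in tumor 1, with a median of -0.45 and 0 passing, and Aurka, a spindle kinase, differed by -0.68 (adjusted p = 0.0801), Ccnb2, a mitotic cyclin, by -0.62 (adjusted p = 0.118) and Foxm1, a transcription factor of mitotic genes, by -0.57 (adjusted p = 0.426). Tumor 2 lay above both tumors 4 and 5 for 14 of the 22 and below both for 5. For the 46 members it lay above both for 7, against 35.4% of all genes, and below both for 32. The 31 other replication genes did not share the members' split, with 13 above and 14 below. The median of tumor 2 minus the mean of tumors 4 and 5 was -0.13 for the 46 members. It was 0.00080 for the 31 other replication genes, -0.054 for the 25 other nucleotide synthesis genes, 0.12 for the 17 E2F and G1/S genes and 0.074 for the mitotic genes. Over the 2125 genes with the highest mean signals it was -0.11. The differences between the lists were not tested, and the genes of a list are no replicates.

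**Figure D4:**
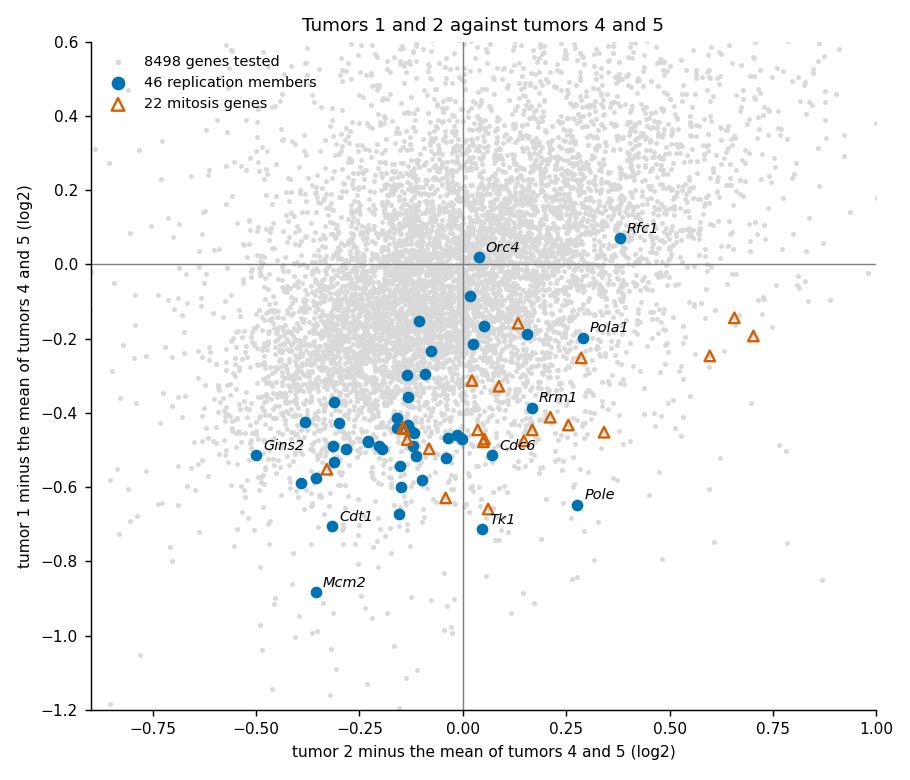
Log2 difference of tumor 2 (x axis) and of tumor 1 (y axis) from the mean of tumors 4 and 5, for the 46 replication members (filled circles), 22 mitosis genes (open triangles) and all 8498 genes tested (grey), of which 534 lie outside the plotted area. Both lists lie below 0 on the y axis apart from Orc4 and Rfc1, and the members lie mostly left of 0 on the x axis (median -0.13), the mitosis genes more often right of it (median 0.074).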

How the data were processed

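One array was read per tumor. The deposited values are log2 signals that the authors made with MAS5, per the submitters' processing notes; for the version and the target intensity, the sources used here give nothing. Of 29304 probe sets, 61 controls were left out, and 24679 had a single gene symbol in the platform annotation, 647 several and 3917 none. The 40th percentile was taken in each array, and signals under the median of these percentiles (5.12) were set to it. Probe sets with a mean above the median (5.87) were kept, and the brightest stood for its gene. Each tumor was compared with the other 3 in R 4.3.3 with limma 3.58.1 (lmFit, eBayes with trend), with Benjamini-Hochberg adjustment over 8498 genes; a gene passed at an adjusted p under 0.05 and 2-fold or more. The fit was run on simulated data with a check on the size of the estimated differences only. No requirement was set on the changed genes recovered or on false calls. The number of arrays limits the precision. The members and gene lists were chosen with earlier results of these data known, so lists are described by counts and medians. Values in every tumor are given for the Mcm ring, for the largest and smallest differences and largest SD in each role, and where probe sets disagree or an alternative makes a call; in the 4 other cell cycle and synthesis lists the 3 largest differences are named; markers were named after their values were seen. Values in every tumor for some further partner subunits were added after they were seen. Alternatives were other scalings, floors, filters and probe set rules, and leaving out each tumor.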

Additional observations from a re-analysis of the deposited data

Results flagged for a closer look

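For 4 of the 46 genes, 1 tumor lay far from the other 3, with a gap to the nearest tumor that took up most of the gene's range. Tumor 1 was the low one for Pola2 (7.42, gap over range 0.932), Rpa2 (8.33, 0.900) and Rfc3 (7.61, 0.914). Tumor 5 was the high one for Gins3 (6.48, 0.841). Of all genes tested, 450, or 5.3%, had such a tumor.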

How the results depend on the processing

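In the 8 other settings of scaling, floor, filter and probe set rule and with each tumor left out, 0 members passed in any of the 4 comparisons. Under the main settings no member differed by 2-fold in any comparison, so the fold rule by itself was enough to fix the count, whatever the adjusted p. That it stayed at 0 therefore says little about how stable the differences were. The median in tumor 1 was -0.51 with arrays centred on their medians, where the median over all genes was -0.14; it lay between -0.51 and -0.37 over the 8 settings and between -0.47 and -0.37 with a tumor left out. The median in tumor 2 turned to -0.015 with arrays centred on their medians, and ranged from -0.13 to 0.10 with a tumor left out, so its sign is not settled. Members at an adjusted p under 0.05 with no minimum fold in tumor 1, a count chosen after seeing the data, numbered between 0 and 15 with a tumor left out (15 without tumor 2, 1 without tumor 5). The sign of Orc4 turned to -0.017 under quantile normalization, -0.095 with arrays centred, and -0.054 with the mean of the probe sets. With a tumor left out, Orc4 lay between -0.062 (without tumor 4) and 0.061, and Rfc1 between -0.19 and 0.070 (without tumor 2). The cause of these changes was not tested. With a tumor left out, the median in tumor 4 lay between 0.022 and 0.27 and that in tumor 5 between 0.087 and 0.29, both lowest without tumor 1. Over settings chosen after seeing the data, tumor 2 lay below both tumors 4 and 5 for 30 of 46 members at the lowest (quantile normalization, against 44.9% of all genes) and for 35 of 46 at the highest (arrays centred, against 53.7%). Tyms, below the floor in all tumors, could not be read. No paired analysis was possible because the labels hold 1 group.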
